A study of Mus musculus with 19 samples.

Results

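The replication-dependent histone genes were examined in 19 bulk RNA-seq libraries of mouse mammary glands and mammary tumors. Members were protein-coding genes of GENCODE vM21 whose symbol starts with Hist1h, Hist2h, Hist3h or Hist4h. Of 67 such genes, 65 were among the 46078 genes measured: 6 of type H1, 18 of H2A, 16 of H2B, 12 of H3 and 13 of H4. The remaining listed genes, Hist1h2bm and Hist1h2bh, were not analysed here.

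The libraries fell into 5 groups, with n = 3 for MG-WT and n = 4 for every other group. MG-WT glands came from wild-type mice. Every other mouse carried MMTV-neu, a transgene that puts ERBB2 (HER2) expression into mammary epithelium. MG-NP glands and T-NP tumors came from MMTV-neu;p53wm-R172H/+;Fsp-Cre mice, in which Cre from a fibroblast promoter converts the conditional wild-type p53 allele into the R172H mutant in fibroblasts. T-N tumors were all MMTV-neu;Fsp-Cre. MG-N replicate 1 was MMTV-neu;Fsp-Cre too, whereas MG-N replicates 2, 3 and 4 were MMTV-neu;p53wm-R172H/+ without Cre, so the N glands mix 2 genotypes and the N tumors do not. The MMTV-neu mice were of a mixed FVB/C57/BALB/c background, and that of the wild-type mice was not given in the sources used here. Ages were not given in the labels. The study describes the wild-type mice as age-matched. It took the MG-N and MG-NP glands, free of malignant lesions, from mice that bore tumors. Nothing in the labels says which gland and tumor came from the same mouse.

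Replication-dependent histone genes supply the core histones H2A, H2B, H3 and H4, around which DNA is wrapped, and the linker histone H1, which binds where DNA enters and leaves the nucleosome. Cells make these proteins mainly in S phase, when newly copied DNA has to be packaged. Their mRNAs are unusual: most lack introns and a poly(A) tail and end instead just after a short stem-loop, which the stem-loop binding protein (SLBP) recognises. In differentiated or long-lived cells some of these genes are also read through to a poly(A) site further downstream.

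By the annotation (GRCm38), 52 members lay in the Hist1 cluster on chromosome 13, between positions 21715763 and 23934851. Another 10 lay in the Hist2 cluster on chromosome 3, between 96219865 and 96270132, 2 on chromosome 11 (Hist3h2a and Hist3h2ba) and 1 on chromosome 6 (Hist4h4). A single exon was annotated for 60 of the 65. The copies resemble each other closely. When every transcript was divided into 75-base windows, the read length of the study, only 34 members had at least 50% of their windows in no other annotated gene, and 5 had none. A window counted as shared if any other annotated gene held it on either strand. Genes annotated over the same bases therefore lower this share as similar copies do. Hist1h2ap, an H2A gene, had 7.35% unique windows and Hist1h4d, an H4 gene, 96.3%. How the counting treated reads that match several copies is not given in the sources used here, so single copies with few unique windows are uncertain and sums over a histone type are given beside them. All 18 H2A members also overlap a gene annotated on the opposite strand, so their shares of unique windows do not measure resemblance between copies alone.

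The stem-loop is shown first because it marks the family. A 16-base pattern that starts with GG, has TTT from base 6 and an A at base 11, ends with CC and allows any base elsewhere as long as bases 3 to 5 can pair with bases 12 to 14, searched on the transcript strand, was found in annotated transcripts of 42 of the 65 members (64.6%), against 124 of 21951 protein-coding genes (0.565%). Of the 23 members without it, 15 have annotated transcripts with at most 10 bases after the stop codon, so the annotation ends before the loop could appear. In all, 6 different loops occurred. The form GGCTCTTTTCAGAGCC was held by 24 members of H1, H2A, H2B and H3 and by no H4 member. The form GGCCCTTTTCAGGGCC was held by 7 H4 members, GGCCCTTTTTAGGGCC by 2 and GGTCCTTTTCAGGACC by 2, and by no other type. The sequences below are from GENCODE vM21 transcripts, 5′ to 3′, with the stem-loop in capitals and up to 5 flanking bases on each side.
Hist1h1c (H1): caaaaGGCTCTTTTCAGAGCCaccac
Hist1h2ap (H2A): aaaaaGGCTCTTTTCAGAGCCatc
Hist2h2ac (H2A): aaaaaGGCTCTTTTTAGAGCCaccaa
Hist1h2bb (H2B): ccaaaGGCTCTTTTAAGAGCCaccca
Hist1h3e (H3): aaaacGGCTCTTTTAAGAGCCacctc
Hist1h4h (H4): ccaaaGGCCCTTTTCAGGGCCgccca
Hist1h4i (H4): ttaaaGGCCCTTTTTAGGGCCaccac
Hist1h4j (H4): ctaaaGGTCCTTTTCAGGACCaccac

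How much transcript is annotated beyond the loop differed widely. Hist1h2ap ended 3 bases after it, Hist1h2bb 23 and Hist1h4h 46, whereas Hist1h4j had 385 further bases, Hist1h1c 840 and Hist4h4 2445. A 3′ UTR of more than 200 bases was annotated for 23 members.

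Promoters were taken from RefSeq (GRCm38.p6) for the 60 members that matched, and 4 motifs were searched on both strands in the 200 bases before the start. CCAAT was present in 18 of 18 H2A, 14 of 14 H2B, 6 of 6 H1 and 8 of 10 H3 promoters but in 3 of 12 H4 promoters, against 30% of 27025 promoters. The octamer ATTTGCAT was found in 7 H2A and 5 H2B promoters and in none of the other types (1.39% of all promoters). The H1 box AAACACA was found in 5 of 6 H1 promoters (4.74% of all). TATAAA was found in 26 of the 60 (10.6% of all). H2A and H2B genes often lie head to head and then share part of these windows. The 200 bases before the start are printed for an H1, an H2B and an H4 gene, each among the 3 most abundant of its type, because they show these differences. Capitals mark the motifs, on either strand.
Hist1h1b, chr13:21780626-21780825, minus strand: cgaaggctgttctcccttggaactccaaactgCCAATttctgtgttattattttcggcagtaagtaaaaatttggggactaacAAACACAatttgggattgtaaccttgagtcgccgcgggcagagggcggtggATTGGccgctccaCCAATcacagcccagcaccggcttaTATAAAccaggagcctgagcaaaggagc
Hist1h2bb, chr13:23746534-23746733, plus strand: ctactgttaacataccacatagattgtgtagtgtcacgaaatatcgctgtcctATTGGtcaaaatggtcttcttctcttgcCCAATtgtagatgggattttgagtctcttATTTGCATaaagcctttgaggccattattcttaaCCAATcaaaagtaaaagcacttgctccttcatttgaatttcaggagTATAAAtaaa
Hist1h4h, chr13:23530844-23531043, plus strand: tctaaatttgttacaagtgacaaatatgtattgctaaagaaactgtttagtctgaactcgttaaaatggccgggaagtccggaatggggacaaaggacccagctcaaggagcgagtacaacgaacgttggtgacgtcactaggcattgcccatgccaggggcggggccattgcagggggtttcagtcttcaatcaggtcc

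Several properties of the libraries bear on these genes. Recovered reads ranged from 20899152 to 27262440 in the 16 MMTV-neu libraries and from 54677315 to 62645459 in the 3 MG-WT libraries. A total RNA kit is named in the labels but an mRNA kit in the study's methods, a difference that matters for transcripts without a poly(A) tail. A list of 12 such RNAs was therefore followed. It took 0.311 to 0.427% of all normalized counts in MG-WT, 0.992 to 1.87% in MG-N, 0.775 to 2.26% in MG-NP, 3.11 to 4.95% in T-N and 2.99 to 6.24% in T-NP. The Y RNA Rny3 had 0, 0 and 1.55 normalized counts in the MG-WT libraries and 9680, 7591, 13556 and 10021 in MG-N. The labels give every group the same kit. The greater depth of the MG-WT libraries and their group cannot be told apart. Among markers, 9 luminal epithelial genes were detected in every group, and skeletal muscle genes differed widely within MG-NP, where 12 of them took 1.72, 8.51, 0.0543 and 4.69% of the counts in MG-NP replicates 1 to 4. The library names of T-NP replicates 1 and 2 carry the same animal number; with these averaged, 47 members were called higher in T-NP than in MG-NP, against 13.6% of all genes. Values are normalized counts, the reads divided by a size factor for each library, unless said otherwise.

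Histone mRNA was several-fold more abundant in tumors than in glands, for every type. Summed over its members, H4 had 3055, 2903 and 3118 normalized counts in the MG-WT libraries, 4337, 3658, 5823 and 4100 in MG-N, 8326, 3950, 11127 and 3075 in MG-NP, 17319, 39009, 17764 and 43540 in T-N and 19149, 31893, 36214 and 27925 in T-NP. Each tumor lay above each gland. Type H1 had 3796, 4601 and 4482 in MG-WT, 3852, 3417, 5880 and 3611 in MG-N, 7927, 3536, 8201 and 3298 in MG-NP, 10893, 31692, 12227 and 34136 in T-N and 15275, 19887, 23485 and 16060 in T-NP, again without overlap. The core histones H2A, H2B and H3 followed the same order of tumors over glands. H2A summed to 491 to 979.5 in MG-N, 351 to 1768 in MG-NP, 2519 to 8368 in T-N and 3291 to 6816 in T-NP. H2B summed to 2047 to 3405 in MG-N, 1861 to 5286 in MG-NP, 8674 to 22647 in T-N and 9715 to 17853 in T-NP. H3 summed to 976 to 2415 in MG-N, 454.5 to 4210 in MG-NP, 6267 to 17754 in T-N and 7896 to 14598 in T-NP. The ratio of mean sums, T-N over MG-N, was 5.31 for H1, 8.08 for H2A, 6.04 for H2B, 8.23 for H3 and 6.57 for H4. For T-NP over MG-NP it was 3.25, 4.86, 3.82, 4.9 and 4.35 in the same order. All 65 together made up 0.0404 to 0.0747% of the counts in MG-N, 0.026 to 0.132% in MG-NP, 0.167 to 0.452% in T-N and 0.212 to 0.363% in T-NP. In bulk tissue, more cells that express a gene and more RNA per cell cannot be told apart.

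**Figure D1:**
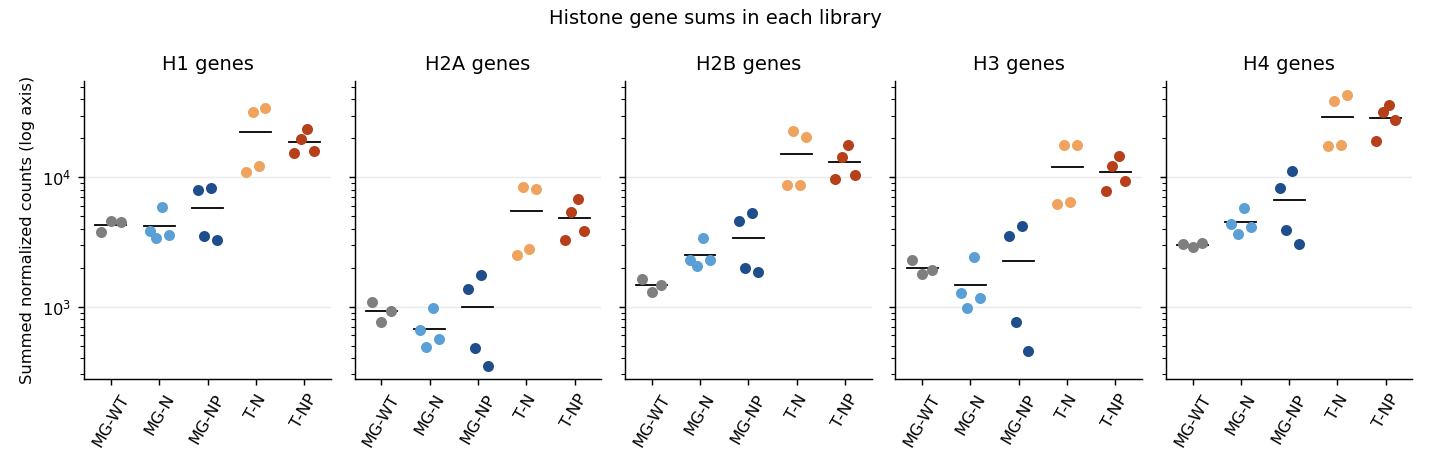
Summed normalized counts of the H1, H2A, H2B, H3 and H4 genes in each of the 19 libraries, by group, on a log axis. Points are libraries and black lines group means; in all 5 panels every tumor lies above every gland, and the MG-NP glands spread for H3 from 454.5 to 4210.

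Single genes were tested with limma across all genes and called at an adjusted p under 0.05 and a change of at least 2-fold. In T-N against MG-N, 51 of the 65 members were called higher and none lower. Such p-values set a difference against the spread between these samples, with T-NP replicates 1 and 2 entered as separate samples. Another 5 members were tested and not called in T-N, and 9 did not pass the filter on low counts. Over all genes tested, 12.8% were called higher and 22.3% lower. In T-NP against MG-NP, 50 members were called higher and none lower, with 5 tested and not called and 10 not tested, against 14.7% higher and 24% lower over all genes tested. The median log2 fold change of the members tested was 2.92 in T-N and 2.71 in T-NP, against -0.05 and -0.07 over all genes. A member that passed the filter only through its tumor libraries had to be higher there, so these counts and medians describe the members tested and not the whole family. In T-N this holds for Hist1h2an and Hist1h2ap, which reached 10 normalized counts in no MG-N gland. Others needed tumor libraries beside some glands to pass. Fewer than 4 glands reached 10 for 6 members in T-N, 4 of them called higher, and for 10 members in T-NP, 8 of them called higher. Of the members with at least 10 in all 4 glands, 47 of 50 were called higher in T-N and 42 of 45 in T-NP. Of the untested members, Hist2h2aa1, Hist2h3c1 and Hist1h2aa had no read in any library. Hist2h2aa1 and Hist2h3c1 have no unique window.

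All 45 Hist1 members tested were called higher in T-N and 44 of 45 in T-NP. In the Hist2 cluster 5 of 8 were called in T-N and 5 of 7 in T-NP, and neither member on chromosome 11 was called in either.

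**Figure D2:**
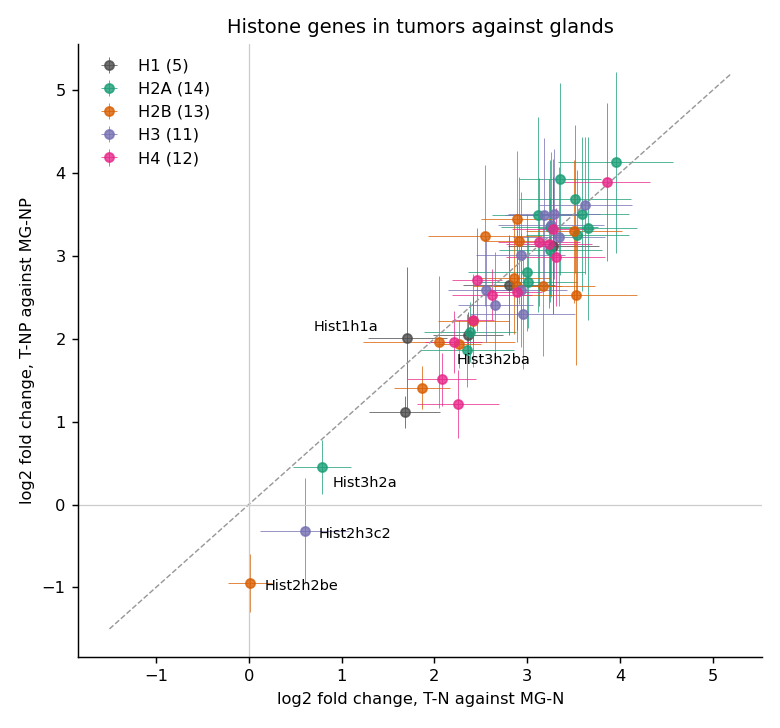
The log2 fold change of each of the 55 members tested in both comparisons, T-N against MG-N on the horizontal and T-NP against MG-NP on the vertical axis, with SE bars and colors for histone types; the dashed line marks equal change. Most members lie between 2 and 4 on both axes, and Hist2h2be, Hist2h3c2 and Hist3h2a lie below 1 on both.

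Per kilobase of exon, the most abundant H1 genes over the 19 libraries were Hist1h1c, Hist1h1b and Hist1h1e. Hist1h1c, which encodes H1.2, had 1568, 1617, 2189 and 1677 normalized counts in MG-N and 2902, 8230, 3895 and 10532 in T-N. It had 2852, 2004, 2998 and 2122 in MG-NP and 4426, 5748, 6633 and 4766 in T-NP. Tumors and glands did not overlap in either genotype, but the change was the smallest of any member called, with a log2 fold change of 1.68 ± 0.39 (SE, adjusted p = 0.00678) in T-N and 1.12 ± 0.19 (SE, adjusted p = 0.00128) in T-NP. Hist1h1b, which encodes H1.5, had 274, 169, 473 and 309 in MG-N and 1560, 5636, 1564 and 4443 in T-N. In MG-NP it had 901, 94.2, 877 and 77.5 and in T-NP 1893, 2859, 3158 and 1983. It changed more, by 3.28 ± 0.49 (SE, adjusted p = 0.000866) and 3.12 ± 0.83 (SE, adjusted p = 0.0117). Hist1h1e (H1.4) rose by 2.36 ± 0.38 (SE, adjusted p = 0.00117) in T-N and 2.05 ± 0.28 (SE, adjusted p = 0.00042) in T-NP, though it overlaps Hist1h2be on the same strand. In all, 5 of 5 H1 genes tested were called higher in T-N and 4 of 5 in T-NP. The exception was Hist1h1a (H1.1), at 2.01 ± 0.86 (SE, adjusted p = 0.0737), whose MG-NP values of 967, 121, 888 and 72.3 overlapped the T-NP values of 780.3, 904, 2335 and 1231. The testis gene Hist1h1t was not tested, with at most 7 normalized counts in any library.

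Among H2A genes, 13 of 15 tested were called higher in T-N and 13 of 14 in T-NP. Hist1h2ak, the most abundant per kilobase, had 52.2, 59.8, 128 and 74.2 in MG-N and 461, 1544, 511 and 1790 in T-N. In MG-NP it had 284, 40.0, 393 and 16.8 and in T-NP 697, 1272, 1603 and 946. No tumor fell into the range of its glands, and the log2 fold change was 3.59 ± 0.51 (SE, adjusted p = 0.000688) in T-N and 3.50 ± 0.93 (SE, adjusted p = 0.0119) in T-NP. Hist2h2ac and Hist1h2ab, next in abundance, rose by 2.36 (adjusted p = 0.00485) and 3.24 (adjusted p = 0.00123) in T-N and by 1.86 (adjusted p = 0.00705) and 3.35 (adjusted p = 0.00797) in T-NP. The largest fitted change was that of Hist1h2ap, with 5.09, 3.45, 6.57 and 1.03 in MG-N against 28.4, 105, 49.5 and 151 in T-N, and 15.3, 0, 18.4 and 0 in MG-NP against 39.2, 93.9, 158 and 47.5 in T-NP. Its gland values rest on 1 to 7 reads in MG-N and on no read in MG-NP replicates 2 and 4, so the log2 fold changes of 3.95 ± 0.62 (SE, adjusted p = 0.00107) and 4.13 ± 1.09 (SE, adjusted p = 0.0116) depend on the pseudocount of 1; with a pseudocount of 5 they were 3.09 and 2.91. Hist1h2an had 3.82, 5.75, 9.39 and 9.27 in MG-N, so that it and Hist1h2ap were tested in T-N only because the tumors were high, and its fitted change of 3.66 ± 0.53 (SE, adjusted p = 0.000766) is no support for a difference. Hist1h2ad and Hist1h2ah were called at 3.93 ± 1.16 (SE, adjusted p = 0.0188) and 3.69 ± 0.89 (SE, adjusted p = 0.00772) in T-NP. MG-NP replicate 4 held 0 and 2 reads of them, and without it they were at 2.64 and 3.04. Hist1h2ad, Hist1h2ah and Hist1h2ap reached 10 normalized counts in fewer than 4 MG-NP glands. These genes passed the filter in T-NP only with tumor libraries, so their fits there are no support for a difference. Hist1h2an and Hist1h2ah have 15.4% and 8.46% unique windows.

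Among H2B genes, 11 of 13 tested were called higher in T-N and 11 of 13 in T-NP. Hist1h2bb, which holds the octamer shown above, was the most abundant per kilobase. It had 292, 187, 452 and 212 in MG-N and 1113, 3750, 1129 and 3385 in T-N, and 707, 124, 811 and 106 in MG-NP and 1481, 2210, 2399 and 1458 in T-NP. Tumors lay above glands throughout, at 2.89 ± 0.48 (SE, adjusted p = 0.00137) in T-N and 2.64 ± 0.68 (SE, adjusted p = 0.0102) in T-NP. Hist2h2bb and Hist1h2bl, the next most abundant, rose by 2.42 (adjusted p = 0.00113) and 2.89 (adjusted p = 0.000552) in T-N, and by 2.22 (adjusted p = 0.00927) and 3.45 (adjusted p = 0.00711) in T-NP. Every window of Hist2h2bb also occurs in another annotated gene, and it overlaps annotated genes on both strands.

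Among H3 genes, 10 of 11 tested were called higher in each genotype. Hist1h3g had 48.4, 31.0, 96.7 and 44.3 in MG-N and 435, 968, 312 and 1232 in T-N, and 152, 30.0, 192 and 11.6 in MG-NP and 479.9, 810.0, 1122 and 584 in T-NP. It changed most within the type, by 3.63 ± 0.50 (SE, adjusted p = 0.000645) in T-N and 3.61 ± 0.82 (SE, adjusted p = 0.00592) in T-NP. The 3 most abundant, Hist1h3e, Hist1h3i and Hist1h3c, rose in T-N by 2.66 (adjusted p = 0.00098), 3.35 (adjusted p = 0.00084) and 3.18 (adjusted p = 0.000523). In T-NP they rose by 2.41 (adjusted p = 0.0114), 3.23 (adjusted p = 0.0105) and 3.50 (adjusted p = 0.0115).

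All 12 H4 genes tested were called higher in both genotypes. Hist1h4h had the highest level per kilobase of any member in tumors, 10340 ± 4116 normalized counts per kilobase in T-N and 11720 ± 4023 in T-NP (mean ± SD, n = 4), against 1338 ± 276 in MG-N and 2180 ± 1469 in MG-NP. It rose by 2.89 ± 0.27 (SE, adjusted p = 0.000123) and 2.57 ± 0.46 (SE, adjusted p = 0.00178), and its promoter window holds none of the 4 motifs. Hist1h4d and Hist1h4f followed, with log2 fold changes of 2.21 (adjusted p = 0.000629) and 3.13 (adjusted p = 0.000679) in T-N and 1.96 (adjusted p = 0.00248) and 3.17 (adjusted p = 0.00796) in T-NP. Hist1h4j changed most, from 66.2, 85.0, 126 and 85.5 in MG-N to 719, 1960, 719 and 2781 in T-N and from 264, 71.4, 404 and 11.6 in MG-NP to 1166, 1319, 2117 and 1442 in T-NP. The lowest tumor was at 719 and the highest MMTV-neu gland at 404, and the log2 fold change was 3.86 ± 0.46 (SE, adjusted p = 0.000331) in T-N and 3.89 ± 0.95 (SE, adjusted p = 0.00822) in T-NP. In Hist1h4j 78.1% of the windows were unique.

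The members that were not called in T-N, 5 in number, are named here after their values were seen. Hist2h2be, an H2B gene with a 3′ UTR of 2192 bases in which the loop pattern was not found, had 227, 199, 205 and 174 in MG-N and 166, 297, 196 and 173 in T-N, a log2 fold change of 0.01 ± 0.23 (SE, adjusted p = 0.967). It had 171, 168, 161 and 411 in MG-NP and 139, 124, 101 and 78.7 in T-NP, where every tumor lay below every gland, at -0.94 ± 0.35 (SE, adjusted p = 0.0466). That passed the adjusted p but not the 2-fold limit. All its windows are unique. Hist2h3c2 (H3) was at 36.9, 19.5, 7.51 and 17.5 in MG-N and 27.3, 39.0, 28.3 and 18.7 in T-N, and Hist2h2aa2 (H2A), with no unique window, was at 19.1, 5.75, 3.76 and 9.27 and 10.2, 4.21, 13.1 and 16.3. In both, tumor and gland values overlapped. Hist3h2a was at 129, 60.9, 96.7 and 104 in MG-N and 246, 169, 127 and 135 in T-N, and Hist3h2ba, called in neither genotype, had log2 fold changes of 2.05 ± 0.82 (SE, adjusted p = 0.0633) in T-N and 1.96 ± 0.79 (SE, adjusted p = 0.0616) in T-NP.

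Dividing the members by how they are annotated left the direction as it was. Of members with at least 50% unique windows, 28 of 31 tested were called higher in T-N with a median log2 fold change of 2.55, and of those with fewer, 23 of 25 with a median of 3.25. Members with a 3′ UTR over 200 bases were called in 15 of 19 with a median of 2.27, and the others in 36 of 37 with a median of 3.18. In T-NP these counts were 27 of 31 and 23 of 24, and 15 of 19 and 35 of 36.

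**Figure D3:**
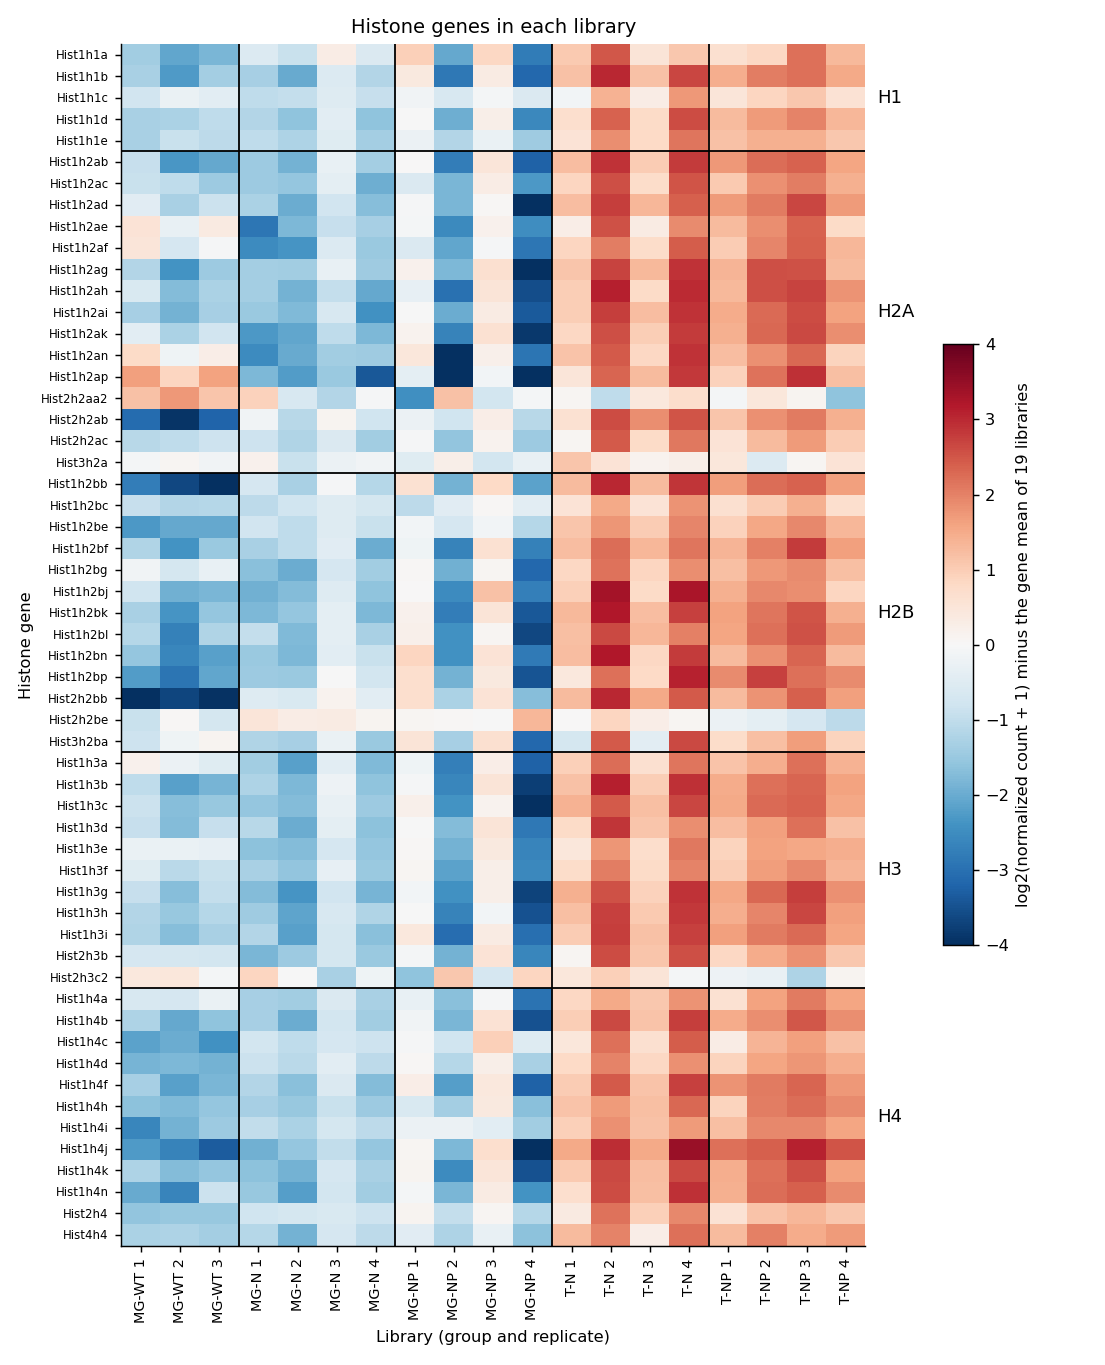
Level of each member with at least 10 normalized counts in 4 or more libraries, as log2(normalized count + 1) minus that gene's mean over 19 libraries, with libraries in columns and genes in rows ordered by type. Tumor columns are red for nearly all rows, Hist2h2be, Hist2h3c2, Hist2h2aa2 and Hist3h2a show no such step, and many rows are darkest blue in MG-NP replicate 4.

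Other gene groups also differed between tumors and glands. Of 24 S phase genes, 22 were called higher in T-N and 17 in T-NP, and none lower, with medians of 1.48 and 1.35. Ccna2, which encodes cyclin A2, rose by 3.19 ± 0.49 (SE, adjusted p = 0.000955) and 3.35 ± 0.70 (SE, adjusted p = 0.0038), and Rrm2, a subunit of ribonucleotide reductase, by 2.95 ± 0.51 (SE, adjusted p = 0.00179) and 3.16 ± 0.62 (SE, adjusted p = 0.00277). Of the 12 RNAs without a poly(A) tail, 12 were called higher in T-N and 11 in T-NP, with medians of 1.98 and 2. White adipocyte markers were lower in 9 of 9 in both, summing to 227205 to 294492 in MG-N and 1584 to 7056 in T-N. Luminal epithelial markers were called higher in 6 of 9 in T-N and 7 of 9 in T-NP, with 1 lower in each, and summed to 17445 to 32654 in MG-N and 95119 to 176849 in T-N. B cell markers were lower in 5 of 5 in both, T cell markers in 5 of 5 and 4 of 5, macrophage markers in 3 of 5 and 2 of 5, and fibroblast markers in 3 of 5 in both. Skeletal muscle markers were lower in 1 of 12 in T-N and 12 of 12 in T-NP. The part of these in the histone result was not tested.

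Genes for variant histones and for proteins that handle histones were followed from fixed lists. Of 11 replication-independent variants, histones that can be made outside S phase, 6 were called higher in T-N and 7 in T-NP, none lower, with medians of 1.35 and 1.33. H2afx, whose protein is phosphorylated at DNA breaks and which can also make a stem-loop mRNA without a poly(A) tail, rose by 2.42 ± 0.30 (SE, adjusted p = 0.000391) and 2.02 ± 0.44 (SE, adjusted p = 0.00452), and Cenpa, the centromeric H3, by 2.01 ± 0.33 (SE, adjusted p = 0.00135) and 1.84 ± 0.54 (SE, adjusted p = 0.0176). Of 10 chaperones, 4 were called in T-N and 5 in T-NP, among them Chaf1b, a subunit of the CAF-1 complex that deposits H3 and H4 behind the replication fork, at 2.14 ± 0.43 (SE, adjusted p = 0.00349) and 2.15 ± 0.55 (SE, adjusted p = 0.0102). Of 15 genes for transcription and 3′ processing of histone mRNA, only Zfp473, a component of the U7 snRNP machinery, was called, at 1.73 ± 0.36 (SE, adjusted p = 0.00445) in T-N and 1.61 ± 0.47 (SE, adjusted p = 0.0188) in T-NP. Slbp had log2 fold changes of 0.39 (adjusted p = 0.16) and 0.45 (adjusted p = 0.125).

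Libraries of the same group differed, most in MG-NP and T-N. The sum of all 65 members was 45673, 119345, 47886 and 124168 in T-N replicates 1 to 4, 55326, 83576, 98966 and 67640 in T-NP, 12440, 10589, 18502 and 11721 in MG-N, whereas the MG-NP glands had 25740, 10711, 30592 and 9039. Replicates 2 and 4 were the high ones in T-N, and replicates 1 and 3 in MG-NP. The mean level of the 24 S phase genes, as log2(normalized count + 1), was 9.58, 10.94, 9.54 and 10.55 in T-N, 9.71, 9.95, 10.25 and 9.76 in T-NP, 8.37, 8.36, 8.88 and 8.30 in MG-N, whereas the MG-NP glands had 9.08, 7.60, 9.09 and 7.29. Within each of these 4 groups the library with the highest histone sum had the highest or the second highest S phase level. The mean of the 12 skeletal muscle genes, on the same scale, was 14.36, 17.24, 9.25 and 16.54 in MG-NP, and that of 5 B cell genes was 10.24, 5.56, 11.10 and 8.86, so the low histone libraries 2 and 4 held most muscle RNA and least B cell RNA. The part of either in the histone level was not tested.

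**Figure D4:**
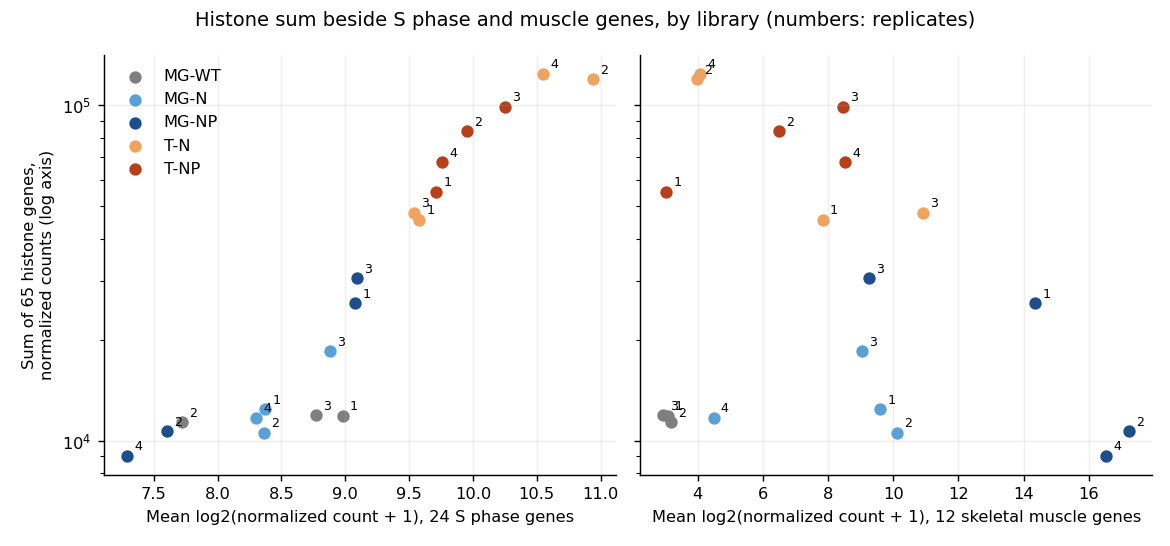
Summed normalized counts of the 65 histone genes in each library (log axis) against the mean log2(normalized count + 1) of 24 S phase genes, left, and of 12 skeletal muscle genes, right, with replicate numbers beside the points. On the left the 16 MMTV-neu libraries extend from MG-NP replicate 4 at 7.29 to the T-N replicates 4 and 2 at 10.55 and 10.94, and MG-WT replicates 1 and 3 lie below the others at the same S phase level; on the right MG-NP replicates 2 and 4 are alone above 16.

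Because MG-NP replicates 2 and 4 stood apart by muscle, T-NP was also compared with the remaining MG-NP libraries, an alternative added after seeing the data. The replicates left out were also the low histone libraries of MG-NP, so this raises the gland level by itself. Then 45 of 57 members tested were called higher, against 13.3% of all genes, but Hist1h2ap changed by 2.05 in place of 4.13 and Hist1h4j by 2.17 in place of 3.89 on the log2 scale. With the muscle score as a covariate instead, 4 members were called higher, against 9.08% of all genes, with Hist1h4j at 1.79.

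Mutant p53 in fibroblasts was compared within each tissue. In MG-NP against MG-N no member was called among 53 tested, and 0% of all genes were. No gene of the 5 related lists or the 7 marker lists was called in either genotype comparison, which does not show equal composition. In MG-NP against MG-N the skeletal muscle markers had log2 fold changes from 3.41 to 7.01, with a median of 6.24. Fibroblast markers had a median of -1.25, and the medians of the other marker lists lay between -0.84 and 1.09. In T-NP against T-N only 1 of 5 B cell markers was tested. In the glands a single member, Hist1h1c, had an unadjusted p under 0.05, at 0.49 ± 0.18 (SE, adjusted p = 0.383), with 1568, 1617, 2189 and 1677 in MG-N against 2852, 2004, 2998 and 2122 in MG-NP. That is 1 of 53 members, against 1950 of 18563 genes tested, a smaller share. Hist1h4c, an H4 gene, was at 0.72 ± 0.35 (SE, adjusted p = 0.521). Hist1h2ak, whose values ranged from 16.8 to 393 in MG-NP, was at 0.35 ± 0.96 (SE, adjusted p = 0.953). In T-NP against T-N no member was called among 56 tested, against 0.0361% of all genes called higher and 0.00601% lower. Hist2h2be alone had an unadjusted p under 0.05 and was alone in showing no overlap, with 166, 297, 196 and 173 in T-N and 139, 124, 101 and 78.7 in T-NP, at -0.89 ± 0.28 (SE, adjusted p = 0.65). Over all genes tested, 1210 of 16638 had an unadjusted p under 0.05 and 4.21% showed no overlap. With 1 of 56, the members were below both shares. All other members overlapped between the tumor genotypes, with log2 fold changes from -0.87 to 0.55. By edgeR no member was called in either genotype comparison, and 0% of all genes were. By DESeq2 no member was called either, against 2.77% of all genes in the glands and 0.511% in the tumors. The difference between the genotypes in the change from gland to tumor was tested as an interaction. It was called for none of 56 members and for 0% of all genes, with a smallest adjusted p of 0.598, that of Hist2h2be. An unadjusted p under 0.05 was found for 1 member and for 1536 of 19367 genes. By edgeR the interaction was called for no member and 0% of all genes. There 1 member and 1805 of 19367 genes had an unadjusted p under 0.05. By DESeq2 the interaction was called for no member against 1.84% of all genes. There 3 members and 2058 of 19367 genes had an unadjusted p under 0.05. The median member value was -0.17 in limma and -0.77 in both edgeR and DESeq2.

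Glands of MMTV-neu mice were compared with MG-WT glands last. In MG-N against MG-WT, 8 members were called higher and 8 lower of 56 tested, against 19.1% higher and 17.9% lower over all genes tested. In MG-NP, 8 were called higher and 1 lower, against 16.4% and 16.2%. In neither comparison was the share of members called above that of all genes. A member that passed the filter only through the group where it was high had to differ in that direction. These counts therefore describe the members tested and not the whole family. The 2 comparisons share the MG-WT libraries. The groups did not overlap for 18 of 56 members in MG-N and 9 in MG-NP, against 61.3% and 54.4% of all genes tested.

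The types did not move together. The H2B sum was 1307 to 1644 in MG-WT, below every MG-N gland, with a ratio of mean sums of 1.7, and the H4 sum was 2903 to 3118, again below every MG-N gland, with a ratio of 1.48. Single members of these types did not all rise in MG-N. Their log2 fold changes ran from -1.06 to 3.70 in H2B (median 0.58) and from -0.63 to 1.37 in H4 (median 0.44). H2A and H3 had ratios of 0.73 and 0.728, and H1 of 0.976, with overlapping libraries. In MG-NP the ratios to MG-WT were 1.34 for H1, 1.08 for H2A, 2.32 for H2B, 1.12 for H3 and 2.19 for H4. The largest rise was that of Hist2h2bb, with 12.8, 23.9 and 19.6 in MG-WT, 225, 207, 351 and 236 in MG-N, while MG-NP had 515, 131, 466 and 96.8. Its log2 fold change was 3.70 ± 0.29 (SE, adjusted p = 2.59e-05) in MG-N and 3.62 ± 0.65 (SE, adjusted p = 0.00406) in MG-NP, but it has no unique window. Hist2h2ab (H2A) had 5.12, 2.44 and 4.65 in MG-WT against 45.9, 23.0, 54.5 and 28.8 in MG-N, and Hist1h2bb had 68.2, 36.1 and 25.3 against 292, 187, 452 and 212. For these 3 genes, each also higher in MG-NP, no gland of either MMTV-neu group reached down to the wild-type range. Hist1h4c rose by 1.37 ± 0.16 (SE, adjusted p = 0.000203) in MG-N and 2.09 ± 0.40 (SE, adjusted p = 0.00542) in MG-NP, Hist1h2bp by 1.49 ± 0.43 (SE, adjusted p = 0.0166) in MG-N, and Hist1h2be by 1.63 ± 0.28 (SE, adjusted p = 0.00342) in MG-NP. Hist1h2be overlaps Hist1h1e on the same strand.

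Of the 8 members called lower in MG-N, 5 were H2A genes. Hist1h2ap had 64.4, 37.6 and 63.0 in MG-WT, above the 5.09, 3.45, 6.57 and 1.03 of MG-N and the 15.3, 0, 18.4 and 0 of MG-NP, with log2 fold changes of -3.59 ± 0.49 (SE, adjusted p = 0.000455) and -3.69 ± 1.20 (SE, adjusted p = 0.0389). It reached 10 normalized counts in no MG-N gland and, in MG-NP, only in replicates 1 and 3. Hist1h2ap passed the filter only with MG-WT libraries, so neither fit is support for a difference. Hist1h2an and Hist1h2ae had log2 fold changes of -2.13 ± 0.40 (SE, adjusted p = 0.00223) and -1.93 ± 0.48 (SE, adjusted p = 0.00885) in MG-N. Hist1h2an reached 10 normalized counts in no MG-N gland. It was tested only because MG-WT was high, so its fit is no support for a difference. Hist2h2aa2 and Hist1h3e had log2 fold changes of -1.57 ± 0.51 (SE, adjusted p = 0.0268) and -1.10 ± 0.25 (SE, adjusted p = 0.00577) in MG-N. Among the MG-N glands Hist2h2aa2 reached 10 only in replicate 1, so it too passed the filter only with MG-WT libraries. Hist1h2ap, Hist1h2an and Hist2h2aa2 each have under 16% unique windows, and a call for a single copy is uncertain there. Of the RNAs without a poly(A) tail, 10 of the 11 tested were called higher in each comparison, as 9 of 9 luminal markers were lower and 9 of 9 adipocyte markers higher. In no MG-WT library did Rny1, Rny3, Vaultrc5 or the adipocyte marker Adrb3 reach 10 normalized counts. The same holds for Rn7s2, tested in MG-N, and Rn7s1, tested in MG-NP. These genes were tested only because the MMTV-neu glands were high, so their calls are no support for a difference. Summed luminal markers were 124621 to 145719 in MG-WT and 17445 to 32654 in MG-N. Among S phase genes 3 were called lower in MG-N and 1 in MG-NP, and none higher. With both muscle-rich MG-NP libraries left out, 34 of 57 members tested were called higher in MG-NP than in MG-WT and 3 lower, against 18.7% and 16.1% of all genes in that fit. The libraries left out, replicates 2 and 4, also had the lowest histone sums of MG-NP, 10711 and 9039. Only replicates 1 and 3 remained, at 25740 and 30592. Leaving out the low libraries raises the MG-NP level by itself, so this count cannot be read as the result of removing muscle. The part of depth, RNAs without a poly(A) tail, luminal, adipocyte and muscle content in these differences was not tested.

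**Figure D5:**
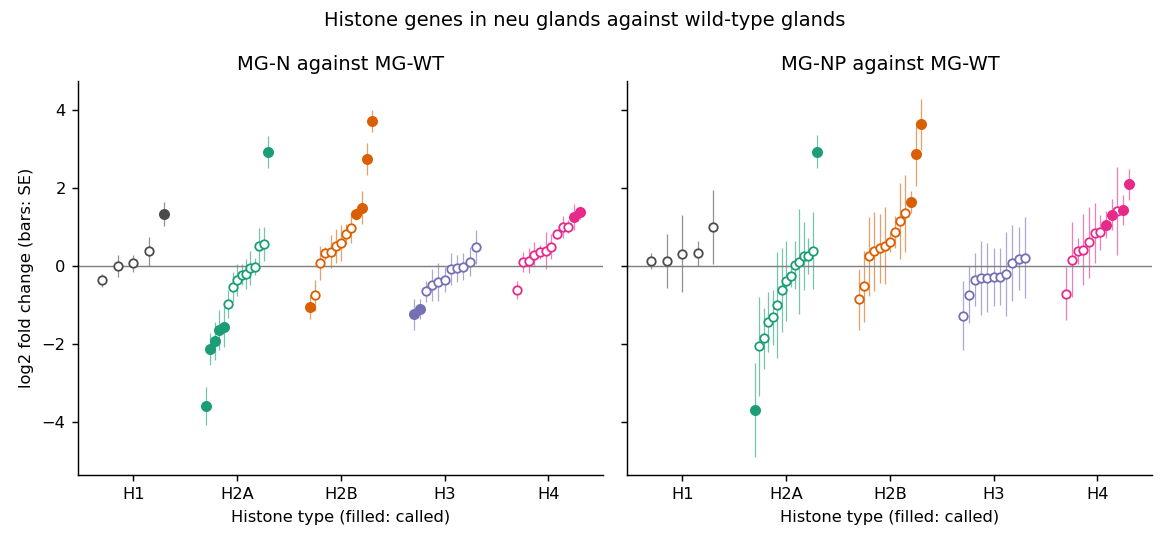
The log2 fold change of each member tested, MG-N against MG-WT on the left and MG-NP against MG-WT on the right, by histone type, with SE bars; filled points were called. Both comparisons use the same 3 MG-WT libraries. H2A points reach from -3.59 to 2.91 in MG-N and from -3.69 to 2.92 in MG-NP. These ends are Hist1h2ap and Hist2h2ab, which passed the filter only with the group where they were high.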

How the data were processed

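RNA was sequenced from 19 mouse mammary glands and tumors. Per the labels and the study's methods, the authors aligned 75-base read pairs to GRCm38 with TopHat2 2.1.1 and Bowtie2, counted reads per gene and deposited normalized counts, a signal equal to reads divided by a DESeq2 size factor for each library. The counting tool and annotation are not given in the sources used here. Multiplying each value by a size factor, estimated from the small values of the same library, gave whole reads for 100% of values (within 0.05 reads).

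Groups came from the labels. Each pair of groups was tested with limma 3.58.1 (R 4.3.3, trend) on log2(normalized count + 1), for genes with at least 10 normalized counts in as many libraries as the smaller group holds. P-values were Benjamini-Hochberg adjusted over all genes tested, and genes were called at an adjusted p under 0.05 and a change of at least 2-fold. The interaction used 4 groups and no fold limit. A fold change on the log2(normalized count + 1) scale understates that of low genes. The fit was tested on simulated data. Alternatives were edgeR 4.0.16 and DESeq2 1.42.0 on the recovered reads, another pseudocount, filter or scaling, a replicate block, a muscle covariate and leaving out libraries.

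Symbols, exons and overlaps came from GENCODE vM21, which matched 97.97% of 46078 identifiers. Levels per kilobase use merged exon length. Named genes were the 3 most abundant per kilobase of each type, and in each comparison the 5 largest rises and falls among called members whose groups do not overlap. Members and lists were chosen with earlier results of these data known.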

Additional observations from a re-analysis of the deposited data

How the results depend on the processing

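In T-N against MG-N, leaving out each replicate gave 51 to 52 members higher and 0 lower. In T-NP against MG-NP the same gave 45 to 52 higher and 0 to 1 lower, with 1 lower without MG-NP replicate 3. There, 1 member was lower with edgeR, with DESeq2 and with no fold threshold, and 4 were higher with the skeletal muscle score as a covariate. Calls against MG-WT were less stable. In MG-N, leaving out each replicate gave 8 to 11 higher and 3 to 9 lower, with 4 lower without MG-WT replicate 1 and 3 without MG-N replicate 2, and a single fit of all 5 groups gave 5 higher and 3 lower. In MG-NP, leaving out each replicate gave 4 to 10 higher and 0 to 1 lower. It was 5 higher without MG-WT replicate 1 or 3 or MG-NP replicate 1, 4 without MG-WT replicate 2, and 0 lower without MG-WT replicate 1 or 2 or MG-NP replicate 4. Single calls of Hist2h2aa2, Hist1h2bp and Hist1h3e in MG-N and of Hist1h2ap and Hist1h2bb in MG-NP were lost in at least 1 of these fits. The number lower there was 2 without a filter, 2 in the fit of all 5 groups, and 0 with edgeR, with the replicate block and with the muscle covariate. Leaving out both muscle-rich MG-NP libraries, chosen after seeing the data and also the lowest of MG-NP in histone sum, gave 34 higher and 3 lower. Hist1h2ap in MG-NP against MG-WT reversed to a log2 fold change of 2.60 (limma, adjusted p = 0.386) with the muscle covariate. The cause of these shifts was not tested. Shares of all genes called are not given here for each fit, so the shifts cannot be read as particular to the members. The replicate block changed no other count of calls by over 1.5 times. The replicate numbers share only a number: deviations of same-numbered samples correlated between -0.314 and 0.357. An alternative restricted to sequence unique in the genome was not run. Reads that match several copies, and counts near 0 in the glands, limit single-gene values.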

Other observations

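Hist1h4m, an H4 gene that did not pass the filter, is named here after its values were seen. It had 46.1, 50.3 and 0.517 normalized counts in the MG-WT libraries and at most 5.71 in any other library, and 11% of its windows were unique.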
